A study of Mus musculus with 6 samples.

Results

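Fibroblast growth factors (FGFs), transforming growth factors beta (TGF-beta), bone morphogenetic proteins (BMPs) and their receptors were followed in bulk RNA-seq of mouse embryonic skin with and without Tie1, the gene of an endothelial receptor tyrosine kinase that acts with TIE2 in vessel growth. Members were taken by symbol: the numbered Fgf, Bmp and Gdf genes, Fgfr1 to Fgfr4, Tgfb1 to Tgfb3, Tgfbr1 to Tgfbr3, Bmpr1a, Bmpr1b, Bmpr2, and the inhibin subunits. The symbols matched 60 of the 19131 genes in the files, and 44 of these had at least 10 reads in at least 3 libraries. These 44 members comprised 19 of the FGF family and 25 of the TGF-beta superfamily, while 16 genes fell below the rule.

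The 2 groups were skin of E17.5 (embryonic day 17.5) Tie1 knockout embryos, with 3 libraries, and skin of E17.5 control embryos, with 3 libraries, both on the C57BL/6N background. The sample titles read Tie1ECDKO and Tie1ECDWT, and the letters ECD are not explained in the labels. The labels do not state the allele, the cells in which it was deleted, the body site of the skin, or whether each library is a different embryo, so p-values measure only the spread between these samples, which may be technical. Poly(A) RNA of whole skin was sequenced, and each value therefore sums over all cell types of the tissue.

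Most FGFs are secreted ligands that bind receptor tyrosine kinases with heparan sulfate or Klotho proteins as partners, and signal largely through the MAP kinase cascade, which induces its own inhibitors of the Sprouty and DUSP families. TGF-betas, activins, BMPs and most growth differentiation factors (GDFs) bind pairs of type I and type II serine/threonine kinase receptors that phosphorylate SMAD proteins. In developing skin, FGFs and BMPs pass between epidermis and dermis in the formation and cycling of hair follicles, and TGF-beta acts on fibroblasts and their matrix. BMP9, the product of Gdf2, and its receptor ALK1, the product of Acvrl1, are the branch best known in endothelium.

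The libraries held 19826856 to 20591164 estimated reads, of which the 60 genes took 42905 to 48775 reads (0.214 to 0.242%). The deleted gene had 84, 53 and 46 reads in knockout libraries 1 to 3, against 1187, 1023 and 1215 reads in control libraries 1 to 3. Tie1 fell by 4.20 on the log2 scale (SE 0.23, adjusted p = 0.00387, edgeR quasi-likelihood test with Benjamini-Hochberg adjustment), and without knockout 2 its adjusted p was 0.0559. Markers of epidermis, dermal fibroblasts, hair follicle and endothelium were present in every library, and no gene of any marker list, tested or not, was at 0 in all 6. Knockout 1 and control 1 stood apart from the other libraries in hair follicle genes, whose mean level was 3.10, 4.86 and 5.26 log2 CPM in knockout libraries 1 to 3, against 3.39, 5.03 and 5.67 log2 CPM in controls 1 to 3. CPM here are counts scaled to library size with TMM factors.

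To compare levels between genes, CPM were divided by the length of the longest protein-coding transcript in kilobases (kb). Fgfr1, a receptor with broad mesenchymal expression, had the highest level of the members, with a mean of 80.8 CPM per kb and a range of 70.8 to 93.0 over the 6 libraries, which lay above the ranges of all others. Next in order came Fgfr2, the main epithelial FGF receptor, at 54.1 CPM per kb (39.5 to 63.0). Bmp1 stood at 52.3 CPM per kb (43.4 to 59.6), and despite its name it encodes a metalloprotease that processes procollagen, not a BMP ligand. The level of Bmp7 was 39.8 CPM per kb (32.6 to 46.6), and that of Tgfb1 was 39.1 CPM per kb (36.5 to 42.8). The ranges of Fgfr2 and Bmp1 overlapped, as did those of Bmp1 and Bmp7 and those of Bmp7 and Tgfb1, so the order of these neighbours is within the spread of the libraries. Bmpr1a, Tgfb3, Tgfbr2 and Tgfbr3 followed at 21.3 to 24.9 CPM per kb with overlapping ranges. Fgfr3, Bmp2 and Bmp4, a ligand of dermal and follicular signalling, averaged 16.4, 14.2 and 12.8 CPM per kb. Receptors thus made up 5 of the 9 highest members, and no FGF ligand was among the 12 highest.

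**Figure D1:**
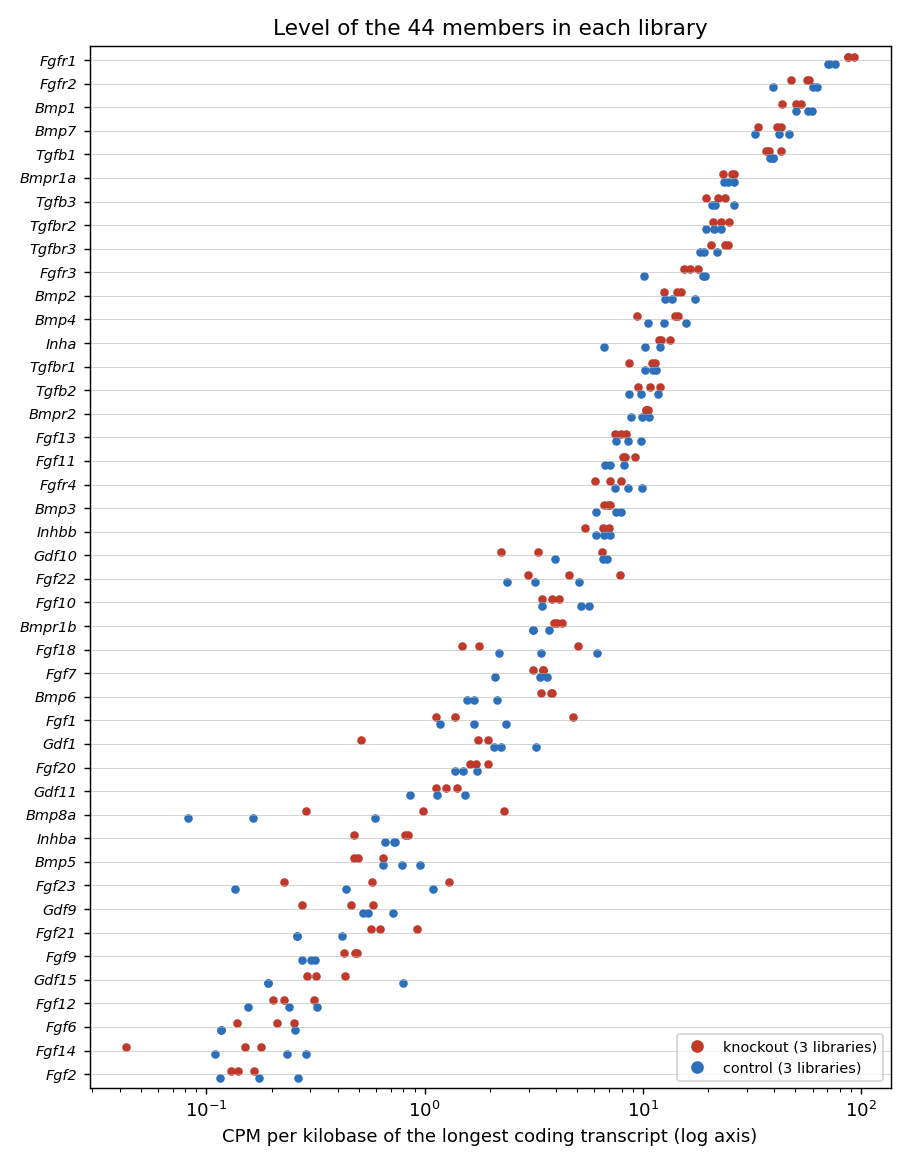
Level of each of the 44 members in TMM-scaled CPM per kb of transcript, on a log axis, with 1 point per library (knockout and control in separate colours). Fgfr1 stands highest at 70.8 to 93.0 CPM per kb, and most members show knockout and control points side by side.

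Between genotypes, 43 members could be tested, since Gdf15 met the rule but not the expression filter of the test. None passed an adjusted p of 0.05 in the edgeR quasi-likelihood test, in which 24 of 15035 genes were called (0.16%). DESeq2 called 2 members, Bmp6 and Fgfr1, among 210 genes (1.4% of those tested), and limma-voom called none of the members among 15 genes (0.0998%). With any 1 library left out, edgeR called 1 to 11 genes and none of the members. At an unadjusted p under 0.05 the edgeR test held 6 of the 43 members (14%), against 7.42% of all genes (4.08% higher and 3.35% lower). Of these, Bmp6, Fgfr1, Bmpr1b, Fgf9 and Fgf21 were higher in the knockout and Bmp5 was lower. Fgf21 had passed the expression filter only through its knockout libraries, so no excess over all genes is read from the share at that level. Knockout and control libraries did not overlap for 6 of the 43 members (14%), against 13.8% of all genes, a share near this background. There were 5 higher, where all genes gave 7.03%, and 1 lower, Gdf1, where all genes gave 6.78%. The median log2 fold change was 0.15 for the FGF family, with 12 values above 0 and 7 below (0.0448 to 0.171 with 1 library left out, 0.0394 with no filter on low counts), and -0.01 for the TGF-beta superfamily, with 12 above and 12 below. Over all genes tested the median was 0.0038 and 51.2% of values lay above 0.

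**Figure D2:**
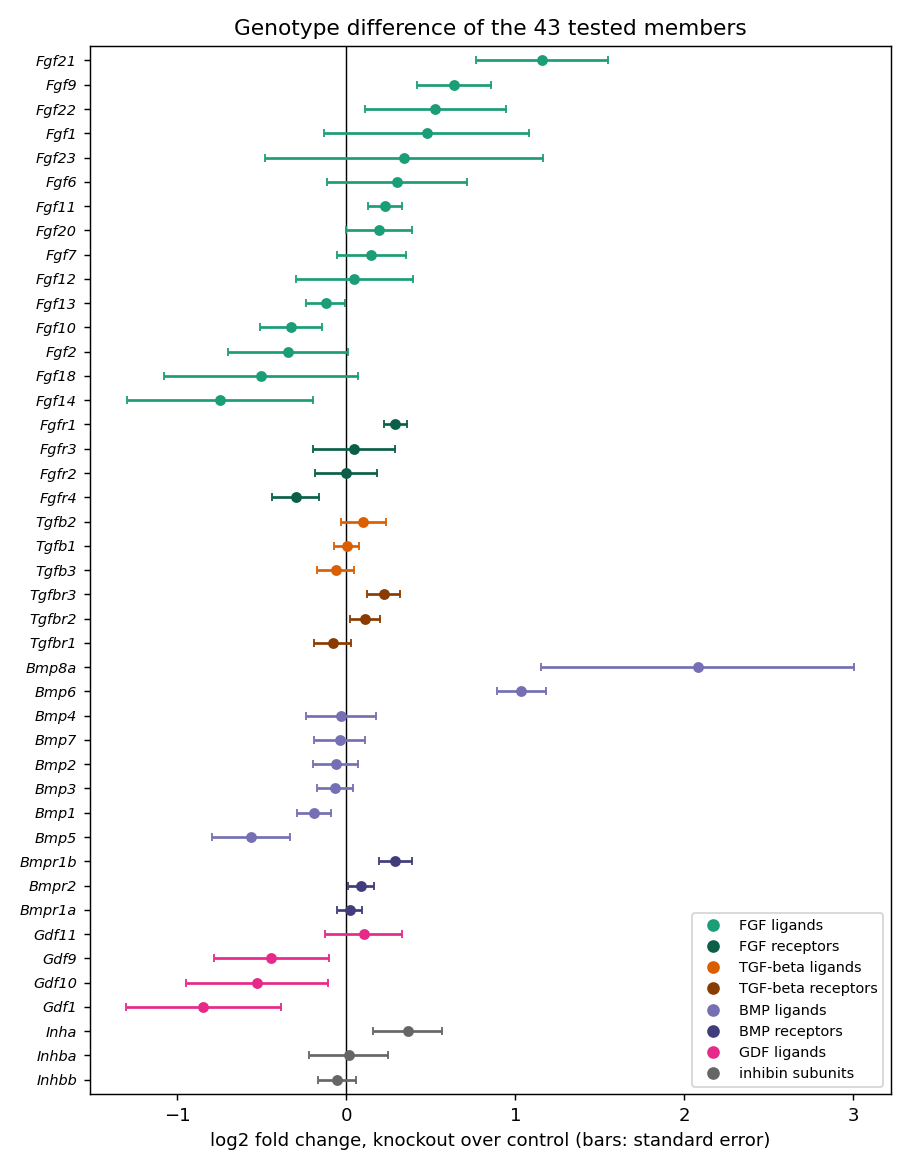
Log2 fold change, knockout over control, of the 43 tested members, with bars of 1 standard error, grouped by role. Bmp6 at 1.03 lies farthest from 0 relative to its bar, while Bmp8a at 2.08 has the widest bar.

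Bmp6, a BMP ligand expressed in differentiating epidermis and in several mesenchymal and endothelial cells, had the smallest p of all members. The gene lies on chromosome 13 from 38345716 to 38500314 (GRCm38.p6). Its span holds the noncoding 4930579J19Rik and shares its last 49 bases with Txndc5, and their reads cannot be told apart where they overlap. Txndc5 itself had 6430, 5817 and 5846 reads in knockout libraries 1 to 3, against 6954, 5669 and 5572 reads in control libraries 1 to 3. Bmp6 had 268, 247 and 278 reads in knockout libraries 1 to 3, against 156, 113 and 123 reads in control libraries 1 to 3. Scaled to depth these were 13.8, 12.2 and 13.6 CPM in knockout skin and 7.70, 5.60 and 6.07 CPM in control skin. Every knockout library lay above every control library, and the gap between the groups was wider than the range within either. Mean levels were 13.2 ± 0.860 CPM in the knockout and 6.45 ± 1.10 CPM in the control (SD, n = 3 each). The log2 fold change was 1.03 (SE 0.15), with an adjusted p of 0.0615 in the edgeR test, just above the threshold. DESeq2 gave an adjusted p of 7.94e-06 and limma-voom 0.0694. Over the 18 alternatives tried, the log2 fold change of Bmp6 stayed between 0.90 and 1.18 and the adjusted p ran from 7.94e-06 to 0.284, passing 0.05 under 5 of them, among them the test without a filter on low counts (0.0473). That fit called 38 genes (0.205% of those tested). Without knockout 1 and control 1 together, Bmp6 had a log2 fold change of 1.15 (adjusted p = 0.0103 in the edgeR test, where 0.923% of genes were called), against 1.03 over all libraries. With a hair follicle score as a term it was 1.01 (edgeR adjusted p = 0.0212, 0.758% of genes called).

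In whole-tissue RNA, fewer cells of a type and less RNA per cell cannot be told apart. Several marker lists moved with genotype beside Bmp6. The summed level of 6 mast cell markers was 1848 to 1908 CPM in knockout libraries and 2665 to 3689 CPM in control libraries, with all 6 markers lower in the mean and 5 not overlapping. Adipocyte markers summed to 214 to 319 CPM in the knockout and 335 to 408 CPM in the control. The mean level of the 5 tested adipocyte markers was 3.54, 3.28 and 3.62 log2 CPM in knockout libraries 1 to 3. In control libraries 1 to 3 it was 5.47, 4.62 and 5.19 log2 CPM. All 5 had a negative fold change, 4 of them without overlap, and 1, Plin1, was called by the edgeR test. Macrophage markers summed to 408 to 475 CPM in the knockout and 283 to 389 CPM in the control, with all 6 positive but only 1 not overlapping. All 5 melanocyte and all 5 erythroid markers had negative fold changes, and each of them overlapped. Of the 11 hair follicle markers, 10 had negative fold changes and 1 a positive one, and each overlapped too. Of all genes tested, 13.8% did not overlap. The part of these marker lists in the members' values was not tested. The epidermal sum, at 23770 to 28560 CPM in the knockout and 18320 to 34420 CPM in the control, overlapped between the groups. So did the endothelial sum, at 515 to 620 CPM in the knockout and 511 to 595 CPM in the control. Of the 7 endothelial markers, 1 was higher and 2 were lower in the knockout without overlap.

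Among the FGF receptors, Fgfr1 (chromosome 8, 25518759 to 25575718) was the only one whose libraries separated by genotype. It overlaps the predicted genes Gm16159 and Gm31288. It had 8503, 9451 and 8927 reads in knockout libraries 1 to 3, against 7237, 7295 and 7734 in control libraries 1 to 3. Levels were 448 ± 17.6 CPM in the knockout and 367 ± 13.2 CPM in the control (SD, n = 3 each), so that the lowest knockout library, at 438 CPM, lay above the highest control, at 382 CPM. The log2 fold change was small at 0.29 (SE 0.067), a fold of 1.22, and had an adjusted p of 0.257 in the edgeR test and 0.00847 in DESeq2. No other alternative brought Fgfr1 past 0.05, and its log2 fold change stayed between 0.25 and 0.32.

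The epithelial receptor Fgfr2 had 206, 248 and 244 CPM in knockout libraries 1 to 3 and 170, 259 and 272 CPM in control libraries 1 to 3. Its group means, 233 ± 23.3 CPM in the knockout and 234 ± 55.4 CPM in the control (SD, n = 3 each), were nearly equal, and control 1 was the lowest library. Fgfr3, which is found in cartilage and in epidermal keratinocytes, had 65.5, 69.9 and 76.3 CPM in the knockout, against 43.1, 82.1 and 80.2 CPM in controls 1 to 3, with control 1 again lowest. Fgfr4, known from liver and muscle, gave 20.2, 23.6 and 26.5 CPM in the knockout, against 24.8, 28.6 and 33.1 CPM in the control. The Fgfr4 groups overlapped, and the log2 fold change of -0.30 (SE 0.14) had an adjusted p of 0.685 (edgeR).

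Of 22 FGF ligand genes, 15 met the rule and were tested, with none called and a median log2 fold change of 0.19. At an unadjusted p under 0.05 (edgeR), 2 of 15 were higher (13.3%), against 4.08% of all genes. These were Fgf9 and Fgf21, and Fgf21 entered the test only through its knockout libraries, where it was high. The share thus counts a gene that could enter only with a difference, and no excess is read from it. Per length, the highest were Fgf13 at 8.28 CPM per kb (7.45 to 9.83) and Fgf11 at 7.92 (6.68 to 9.20), with overlapping ranges that lay below those of Fgfr1 and Fgfr2. Fgf10, a mesenchymal ligand of FGFR2b, had 330, 286 and 321 reads in the knockout, against 473, 288 and 432 reads in controls 1 to 3. Control 2 lay within the knockout range, and the log2 fold change was -0.33 (SE 0.19, adjusted p = 0.736, edgeR). Fgf7, keratinocyte growth factor and a ligand of the same receptor isoform, had 180, 188 and 171 reads in the knockout, against 197, 114 and 182 reads in the control. Reads of Fgf7 cannot be told apart from those of Fam227b, which it overlaps, since no source states whether counting used the strand. Fgf22, a ligand of the same subfamily, had 17.0, 9.97 and 6.48 CPM in the knockout, against 11.1, 6.93 and 5.18 CPM in the control, so the libraries differed more within a group than the groups did from each other.

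Fgf9 (chromosome 14, 58070671 to 58112854), a ligand of both epithelial and mesenchymal receptor isoforms, had 34, 31 and 35 reads in the knockout, against 23, 20 and 22 reads in the control. The groups did not overlap. The log2 fold change was 0.64 (SE 0.22), with an unadjusted p of 0.0209 and an adjusted p of 0.536 (edgeR). Counting error alone allowed a ratio of 1.13 to 2.16 around 1.56 (exact 95% interval). Its close relative Fgf20, which acts in the hair placode, had 46, 58 and 52 reads in the knockout, against 52, 41 and 45 in the control, and the groups overlapped.

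Endocrine FGFs circulate and need a Klotho protein as co-receptor. Fgf21 (chromosome 7, 45613890 to 45615490), a metabolic hormone best known from liver and fat, had 17, 12 and 11 reads in the knockout, against 5, 8 and 5 reads in the control. Having passed the filter only where it was high, it could enter the test only with a difference. Its ratio of summed reads was 2.25 (exact 95% interval 1.26 to 4.17, counting error only), and its log2 fold change of 1.16 (SE 0.39) had an adjusted p of 0.530 (edgeR). Fgf23, the phosphate hormone of bone, had 8, 21 and 48 reads in the knockout, against 5, 16 and 40 in the control, so that the libraries of each group differed more than the groups did. The co-receptor of FGF21, Klb, was not tested for want of reads: it had 1, 1 and 0 reads in the knockout, against 41, 5 and 7 reads in the control. The ratio of its summed reads was 0.0382 (exact 95% interval 0.00451 to 0.145), with most control reads in control 1. Klb is known from adipocytes and liver. The adipocyte marker sums and mean levels given above were lower in the knockout, a parallel whose part in the Klb reads was not tested. Klb was singled out after its values were seen.

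The intracellular FGF homologues Fgf11, Fgf12, Fgf13 and Fgf14 are not secreted and are known as partners of sodium channels. Fgf11 had 26.0 ± 1.74 CPM in the knockout and 22.2 ± 2.36 CPM in the control (SD, n = 3 each). On the log2 scale the difference was 0.23 (SE 0.10, adjusted p = 0.685, edgeR). Fgf13 averaged 19.8 ± 1.17 CPM in the knockout and 21.6 ± 2.91 CPM in the control. Fgf14 was sparse, at 27 reads in all knockout libraries and 46 in all controls, and its log2 fold change of -0.75 (SE 0.55) had an adjusted p of 0.804 (edgeR). Fgf12 had 61 reads in the knockout and 60 in the control, a ratio of 1.03 (exact 95% interval 0.709 to 1.5).

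**Figure D3:**
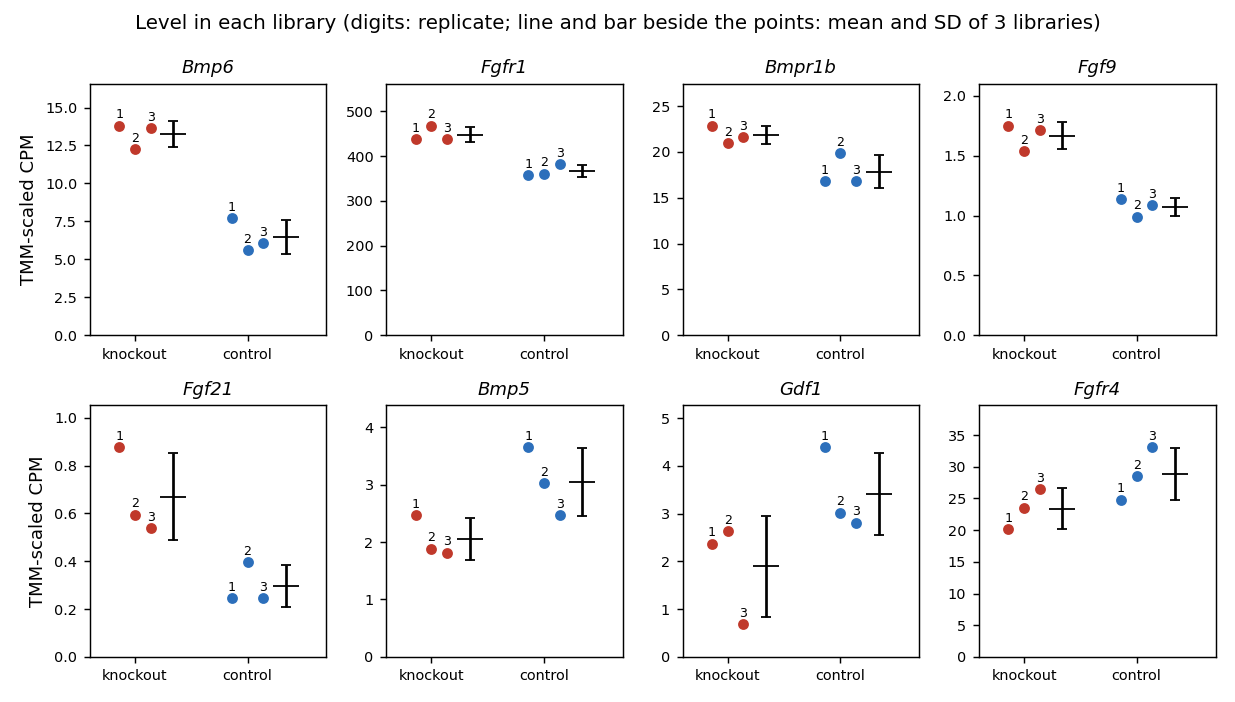
TMM-scaled CPM of 8 members in each library, with the mean and SD of 3 libraries beside the points, knockout left and control right. Bmp6, Fgfr1, Bmpr1b, Fgf9 and Fgf21 lie higher in every knockout library than in any control, Gdf1 lies lower, and Bmp5 and Fgfr4 overlap.

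None of the 3 TGF-beta ligands differed between genotypes by more than the spread between libraries. Tgfb1, the isoform of blood and immune cells and of wounded skin, had 79.4, 82.7 and 93.1 CPM in the knockout, against 82.8, 86.2 and 85.9 CPM in the control. Its log2 fold change was 0.0018 (SE 0.074). Tgfb2 averaged 55.0 ± 6.47 CPM in the knockout and 51.4 ± 8.06 CPM in the control, and Tgfb3 averaged 73.7 ± 7.17 CPM in the knockout and 77.1 ± 9.67 CPM in the control (SD, n = 3 each). The log2 fold changes were 0.10 (SE 0.13) for Tgfb2 and -0.06 (SE 0.11) for Tgfb3.

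Of their receptors, Tgfbr3, or betaglycan, a co-receptor that presents TGF-beta2, had 125, 149 and 145 CPM in knockout libraries 1 to 3, against 111, 116 and 133 CPM in control libraries 1 to 3. Only knockout 1 lay within the control range. The log2 fold change was 0.22 (SE 0.097, adjusted p = 0.678, edgeR). Tgfbr2, the type II receptor, averaged 185 ± 15.6 CPM in the knockout and 171 ± 13.3 CPM in the control, and Tgfbr1, the type I receptor, averaged 59.5 ± 8.44 CPM in the knockout and 63.0 ± 3.42 CPM in the control (SD, n = 3 each). Both pairs of groups overlapped.

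Of the 8 tested BMP genes, Bmp6 and Bmp8a had positive and the other 6 negative log2 fold changes. Bmp5 (chromosome 9, 75775365 to 75900316), close to Bmp6 and Bmp7 in sequence, had 48, 38 and 37 reads in the knockout, against 74, 61 and 50 reads in the control. The highest knockout library, at 2.474 CPM, and the lowest control, at 2.468 CPM, touched. The log2 fold change was -0.57 (SE 0.23), with an unadjusted p of 0.0428 and an adjusted p of 0.642 (edgeR). Bmp7, the third of this subgroup and the most abundant BMP ligand, had 124, 151 and 158 CPM in the knockout, against 119, 154 and 171 CPM in the control. Its log2 fold change was -0.04 (SE 0.15), so that Bmp6 alone of the 3 had separate groups with higher knockout levels.

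Bmp2 averaged 49.5 ± 4.67 CPM in the knockout and 51.8 ± 8.91 CPM in the control, and Bmp4 averaged 26.2 ± 5.81 CPM in the knockout and 26.7 ± 5.43 CPM in the control (SD, n = 3 each). Both act in hair follicle patterning and cycling, and both pairs of groups overlapped. Bmp3, which opposes BMP signalling in bone, averaged 45.4 ± 1.60 CPM in the knockout and 47.6 ± 6.52 CPM in the control. The protease gene Bmp1 averaged 180 ± 18.1 CPM in the knockout and 206 ± 17.4 CPM in the control, at a log2 fold change of -0.19 (SE 0.098, adjusted p = 0.710, edgeR). Bmp8a had 46, 112 and 14 reads in the knockout, against 29, 4 and 8 reads in the control. Knockout 2 carried most of its reads, and all 3 knockout libraries but only 1 control library reached 10 reads. Its log2 fold change of 2.08 (SE 0.93) had an adjusted p of 0.685 (edgeR). Bmp8a is uncertain, because it has a near-identical neighbour in Bmp8b and overlaps Oxct2a.

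All 3 BMP receptors had positive log2 fold changes. Bmpr1b (chromosome 3, 141837135 to 142169585), a type I receptor of cartilage and dermal condensations, had 444, 423 and 440 reads in knockout libraries 1 to 3, against 341, 402 and 340 reads in control libraries 1 to 3. The groups did not overlap, at 21.8 ± 0.977 CPM in the knockout and 17.8 ± 1.79 CPM in the control (SD, n = 3 each). On the log2 scale the difference was 0.29 (SE 0.099), with an unadjusted p of 0.0204 and an adjusted p of 0.533 (edgeR). Bmpr2, the type II receptor mutated in pulmonary arterial hypertension, averaged 134 ± 1.84 CPM in the knockout and 127 ± 12.1 CPM in the control. Bmpr1a, the type I receptor needed for hair follicle differentiation, averaged 149 ± 9.05 CPM in the knockout and 147 ± 8.13 CPM in the control, a log2 fold change of 0.02 (SE 0.073). Taking all receptors of both families, 7 of 10 had a positive value (70%, against 51.2% of all genes) and the median was 0.065.

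Among the GDFs, 3 of 4 tested genes had negative values. Gdf1, a nodal-related ligand of left-right patterning, had 46, 53 and 14 reads in the knockout, against 89, 61 and 57 reads in the control, with no overlap. The value of knockout 3 was far below the other knockout libraries, and the log2 fold change of -0.85 (SE 0.46) had an adjusted p of 0.728 (edgeR). Gdf1 shares its locus with Cers1 and also overlaps Upf1, so its reads are uncertain. Gdf10, also known as Bmp3b, had 655, 348 and 239 reads in the knockout, against 721, 418 and 690 reads in the control. Of its 3 knockout libraries, 2 lay below all controls while knockout 1 lay among them, and the log2 fold change was -0.53 (SE 0.42, and -1.06 to -0.24 with 1 library left out). Gdf11 averaged 5.13 ± 0.553 CPM in the knockout and 4.77 ± 1.38 CPM in the control (SD, n = 3 each). Gdf9, an oocyte factor that overlaps Uqcrq, had 47 reads in the knockout and 65 in the control libraries together.

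Inhibin subunits pair into activins or inhibins. Inhba, which encodes the subunit of activin A, averaged 4.53 ± 1.29 CPM in the knockout and 4.50 ± 0.263 CPM in the control, and Inhbb, of activin B, averaged 27.0 ± 3.49 CPM in the knockout and 28.0 ± 2.04 CPM in the control (SD, n = 3 each). Inha, the inhibin alpha subunit, had 17.4, 19.6 and 17.8 CPM in the knockout, against 9.82, 15.1 and 17.7 CPM in the control. The Inha groups overlapped at control 3, and the log2 fold change was 0.36 (SE 0.20, adjusted p = 0.736, edgeR).

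For most members the libraries of a group differed more from each other than the genotypes did. The median SD within a group was 0.254 log2 units for the members and 0.139 for all genes, without matching the genes for reads. In 27 of 43 members the SD within a group was larger than the difference between genotypes. The same count was not made over all genes, so it cannot be read as a trait of the members. The members with the widest spread were Bmp8a, with an SD of 1.32, and Fgf23, with 1.21. Fgf1, a ligand of all FGF receptors, had 368, 91 and 112 reads in the knockout, against 191, 135 and 95 in the control, so that knockout 1 and control 1 were each the highest of their group. Fgf18, a ligand of cartilage and hair follicles, had 106, 39 and 33 reads in the knockout, against 136, 48 and 75 in the control, again highest in knockout 1 and control 1. Fgf1 overlaps Arhgap26, so its reads are uncertain. The same libraries were lowest of their groups for Fgfr2, Fgfr3 and Bmp4. These are the libraries that were low in hair follicle genes, and what part this had in the members' values was not tested. Leaving both out gave no FGF member past 0.05 and 1 of the TGF-beta superfamily, Bmp6.

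**Figure D4:**
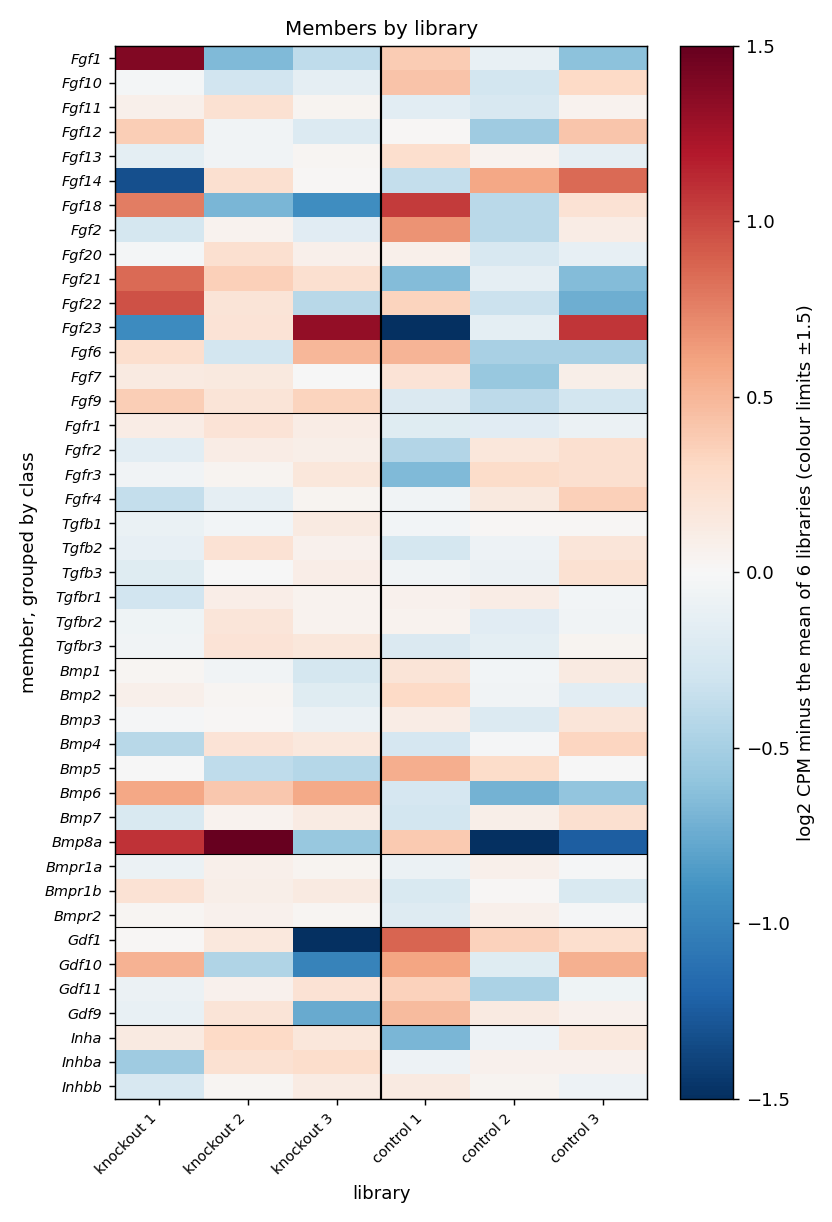
Deviation of each library from the mean of the 6, in log2 CPM, for the 43 tested members in rows, with 3 knockout columns left of 3 control columns. Bmp6 is positive in all knockout columns and negative in all control columns, while Fgf1 and Fgf18 are highest in knockout 1 or control 1.

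The 16 genes below the rule had 0 to 45 reads in all 6 libraries together, and a floor of 3 reads corresponds to 0.147 to 0.155 CPM in a library. Fgf8 and Bmp10 had no read in any library. At most 2 reads in all were found for Fgf3, Fgf4, Fgf15 and Inhbc, and 3 for Gdf2, the ligand gene of the endothelial receptor ALK1. Gdf6 had 32 reads in the knockout and 13 in the control, a ratio of 2.49 (exact 95% interval 1.27 to 5.18), and Fgf16 had 12 reads in the knockout and 30 in the control, a ratio of 0.405 (0.189 to 0.815). For Fgf5, an inhibitor of hair growth, 16 knockout reads stood against 7 control reads, a ratio of 2.32 (0.901 to 6.65). The 2 intervals that leave out 1 cover counting error only and say nothing of the spread between libraries. The remaining genes below the rule, Fgf17, Bmp8b, Bmp15, Gdf3, Gdf5 and Gdf7, had 4 to 45 reads in all and intervals that include 1. Among members that met the rule, Fgf2, which overlaps Nudt6, had 52 reads in the knockout and 67 in the control, a ratio of 0.786 (0.536 to 1.15), and Fgf6, known from muscle, had 56 in the knockout and 46 in the control, a ratio of 1.23 (0.820 to 1.86). Gdf15, a stress-induced member, had 13, 9 and 10 reads in the knockout, against 6, 6 and 25 in the control.

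Other genes of the pathways were counted from lists of their known parts. Of 19 tested FGF modulators and feedback targets, none was called and the median was 0.12. A positive value was found for 14 (73.7%), against 51.2% of all genes. At an unadjusted p under 0.05 (edgeR) there were 3 higher (15.8%) and 0 lower, where all genes gave 4.08% higher and 3.35% lower. Spry1, a feedback inhibitor of FGF signalling, had 103, 88.4 and 86.6 CPM in the knockout, against 69.0, 60.2 and 73.0 CPM in the control. The Spry1 groups did not overlap, and the log2 fold change was 0.46 (SE 0.099), with an adjusted p of 0.220 in the edgeR test and 0.0187 in DESeq2. Dusp6, a phosphatase that inactivates ERK, averaged 77.3 ± 5.13 CPM in the knockout and 64.6 ± 4.73 CPM in the control (SD, n = 3 each), without overlap, at a log2 fold change of 0.26 (SE 0.081, adjusted p = 0.462, edgeR). Fgfbp1, which releases FGFs from the matrix, had a log2 fold change of 0.32 (SE 0.12, adjusted p = 0.587, edgeR) and no overlap.

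In the TGF-beta and BMP pathways no listed gene was called by the edgeR test. The 12 tested SMADs and regulators had a median log2 fold change of 0.058, and none had an unadjusted p under 0.05. The 11 BMP and TGF-beta target genes had a median of 0.059, with 7 values above 0 (63.6%, against 51.2% of all genes). Ctgf, a matrix-associated target of TGF-beta and YAP, had 30.0, 29.8 and 31.7 CPM in the knockout, against 18.3, 17.8 and 23.7 CPM in the control. Its groups did not overlap, and the log2 fold change of 0.61 (SE 0.12) had an adjusted p of 0.159 in the edgeR test and 0.00465 in DESeq2. The Id genes, direct targets of BMP receptors, were on the same list and none had an unadjusted p under 0.05.

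Of 16 tested inhibitors and latency proteins, 2 were higher and 2 lower at an unadjusted p under 0.05 (edgeR). Together these were 25%, against 7.42% of all genes. Ltbp2, a latent TGF-beta binding protein family member of elastic fibres, had 74.9, 66.8 and 66.0 CPM in the knockout, against 42.6, 41.8 and 53.6 CPM in the control. The log2 fold change was 0.59 (SE 0.11), with an adjusted p of 0.153 in the edgeR test and 0.0018 in DESeq2. Chrdl1, a secreted BMP antagonist, averaged 15.8 ± 4.30 CPM in the knockout and 28.2 ± 7.91 CPM in the control (SD, n = 3 each), at a log2 fold change of -0.84 (SE 0.26, adjusted p = 0.497, edgeR). The other 2, Grem1 and Bmper, which are secreted BMP antagonists or modulators, had log2 fold changes of 0.88 (SE 0.30) and -0.72 (SE 0.28).

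Of the 10 receptors and co-receptors outside the symbol rule, 9 had a positive value (90%), against 51.2% of all genes. An unadjusted p under 0.05 (edgeR) was found for 3 (30%), Acvr1c, Amhr2 and Eng, against 7.42% of all genes. Of these, Acvr1c entered the test only through its control libraries, so no excess over all genes is read from the share of 30%. Acvr1c, the receptor ALK7 of fat tissue, had 4, 6 and 6 reads in the knockout, against 43, 15 and 23 reads in the control. It passed the expression filter only through the control libraries, where it was high, so its difference is given as a description: a ratio of summed reads of 0.2 (exact 95% interval 0.109 to 0.345, counting error only) and a log2 fold change of -2.30 (SE 0.49). The adipocyte marker sums and mean levels given above were lower in the knockout too, and their part was not tested. Amhr2, the anti-Müllerian hormone receptor, had 59, 44 and 43 reads in the knockout, against 22, 15 and 19 reads in the control, a log2 fold change of 1.40 (SE 0.27) with an adjusted p of 0.155 in the edgeR test and 0.0214 in DESeq2. Eng, or endoglin, is a co-receptor of endothelial cells and had 130 ± 2.71 CPM in the knockout and 108 ± 6.94 CPM in the control (SD, n = 3 each) and no overlap between groups. Its log2 fold change was 0.27 (SE 0.066, adjusted p = 0.306, edgeR), beside endothelial marker sums that overlapped. Fgfbp1, Grem1, Bmper and Eng were named after their values were seen. The ligand genes Lefty1 and Mstn, the only 2 tested of 5 listed outside the rule, had log2 fold changes of -0.05 each.

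**Figure D5:**
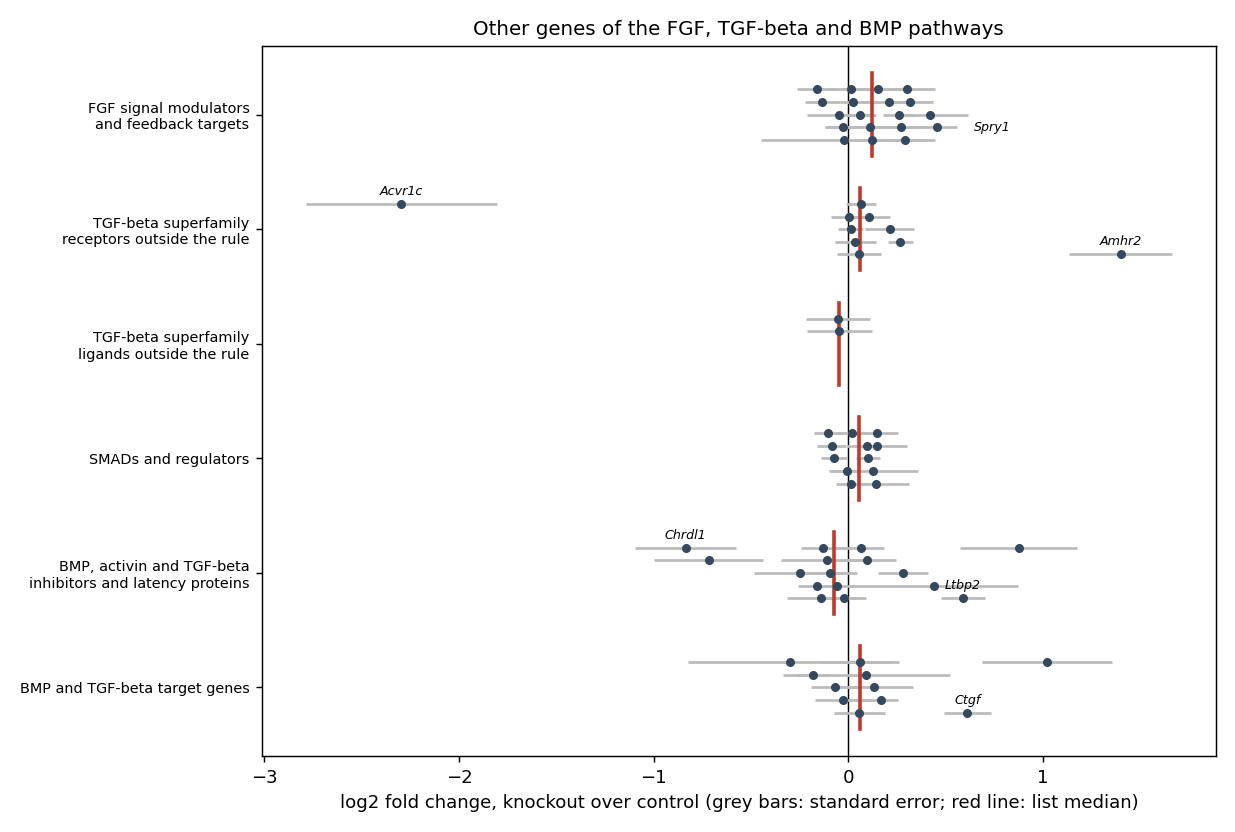
Log2 fold change, knockout over control, of the other tested genes of the FGF, TGF-beta and BMP pathways, with bars of 1 standard error and a red line at the median of each list. Acvr1c at -2.30 and Amhr2 at 1.40 lie farthest out, and the medians of the 6 lists lie between -0.07 and 0.12. Acvr1c entered the test only through its control libraries, where it was high.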

How the data were processed

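The deposited files hold 1 estimated count per gene and library (an expected count, per the file headers), as the authors made it and with no normalization. Per the submitters' processing notes the tools were HISAT2 2.0.4, Bowtie2 2.2.5 and RSEM 1.2.12 with genome build GRCm38.p6, and no role or order is given. Of the genes of a library, 31.0 to 31.9% had values more than 0.001 from a whole number. The annotation and the use of strand are not given in the sources used here. Estimated counts share reads between similar sequences by a model, so close paralogs are uncertain.

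Counts were rounded to whole numbers, filtered with filterByExpr (minimum count 10), scaled with TMM and tested by genotype alone in edgeR 4.0.16 (R 4.3.3; quasi-likelihood F test, robust setting). P-values were adjusted over 15035 genes by the Benjamini-Hochberg method, and an adjusted p under 0.05 made a call. Standard errors are the absolute log2 fold change divided by the square root of F. Alternatives were RLE and upper-quartile scaling, 3 other filters, DESeq2 1.42.0, limma-voom 3.58.1, a non-robust fit, a block for the replicate number, hair follicle and posterior Hox scores as terms, and leaving out libraries.

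Members and gene lists were chosen with earlier results of these data known. Fold changes are given for members named by a rule, 34 in all: members called, all 10 receptors, and in each ligand class up to 5 genes with the smallest unadjusted p and the 2 with the most reads. The rule further took Tie1 and, from each other pathway list, the 2 genes with the smallest p, 12 in all, of which 1 is not reported here, and 4 further pathway genes were named after their values were seen. Coordinates are from the RefSeq gene table of GRCm38.p6, and lengths are from GENCODE M21. Read intervals are exact binomial (95%) and, like the floor of 3 reads, cover counting error only, since PCR reads without molecular identifiers are not independent molecules. No 2 libraries were duplicates: pairs differed by 9.59 to 49.1 times the sampling variance.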

Additional observations from a re-analysis of the deposited data

How the results depend on the processing

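Of 914 pairs of a named gene and an alternative, over 18 alternatives, 52 changed sign, all in 16 genes whose log2 fold change was at most 0.124 in size. RLE scaling, the filters of 10 counts and of 1 CPM in 3 libraries, DESeq2 and the non-robust fit changed no sign. The filter of 1 CPM left 4 named genes without a value.

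Genes called numbered 38 without a filter, 210 with DESeq2, 15 with limma-voom, 139 without knockout 1 and control 1, and 114 with the hair follicle score, against 24. Called members were Fgfr1, the 1 of the FGF family, and Bmp6, the 1 of the TGF-beta superfamily, with DESeq2, and Bmp6 alone (1) without a filter, without knockout 1 and control 1, and with the hair follicle score. At an unadjusted p under 0.05, DESeq2 left 1 FGF member, and its share of all genes at that level was not counted. The hair follicle score gave 7 FGF and 7 TGF-beta superfamily members, where 11.1% of all genes passed that level. The causes were not tested.

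Same-numbered libraries deviated together at correlations of 0.411, 0.0431 and 0.266, and the labels do not say that numbers pair samples. This is a hint from the data, not the design. With the replicate block, 52 genes were called (0.346%), with 1 TGF-beta superfamily member (Bmp6, adjusted p = 0.0405, edgeR), and 6 FGF and 5 TGF-beta superfamily members had an unadjusted p under 0.05, against 10.4% of all genes. Under the block Fgfr2 was 0.0196, Inhba -0.0171 and Tgfb1 -0.00109.

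Other sign changes in log2 fold change were small. Upper-quartile scaling gave Bmpr1a -0.0106, Inhba -0.0147 and Tgfb1 -0.028, and no filter gave Tgfb1 -0.00516. With limma-voom, Fgfr2 was 0.02, Inhba -0.0257 and Tgfb1 -0.00101. Without knockout 1 and control 1, Bmp2 was 0.0309, Fgf13 0.0226, Fgfr3 -0.151, Inhbb 0.0956 and Tgfbr1 0.042. With the hair follicle score, Bmp7 was 0.0226, Fgfr2 0.0813 and Mstn 0.0048. With the posterior Hox score, Bmp7 was 0.145, Fgfr2 0.277, Gdf11 -0.125, Inhba -0.0392, Tgfb3 0.0093, Tgfb1 -0.00065 and Mstn 0.118.

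Leaving out 1 library gave 1 gene called (without knockout 2) to 11 (without knockout 1). At an unadjusted p under 0.05 (edgeR) these fits held 2 to 5 TGF-beta superfamily members, and the share of all genes at that level was not counted in them. The median of the TGF-beta superfamily ran from -0.0751 without knockout 2 to 0.0624 without knockout 1. Ranges that crossed 0 were -0.185 to 0.0019 for Bmp3, -0.174 to 0.0682 for Bmp7, -0.162 to 0.0841 for Bmp2, -0.0178 to 0.0682 for Bmpr1a, -0.189 to 0.111 for Fgfr2, -0.202 to 0.187 for Fgfr3, -0.0897 to 0.339 for Gdf11, -0.136 to 0.0442 for Inhbb and -0.123 to 0.231 for Inhba. They were -0.0013 to 0.218 for Tgfb2, -0.131 to 0.0377 for Tgfb3, -0.0679 to 0.049 for Tgfb1, -0.155 to 0.0324 for Tgfbr1, -0.161 to 0.0221 for Lefty1 and -0.149 to 0.126 for Mstn. Among named members that kept their sign, wide ranges were 1.17 to 3.25 for Bmp8a, -1.16 to -0.446 for Gdf1, -1.06 to -0.24 for Gdf10, -1.1 to -0.352 for Fgf14, 0.09 to 0.876 for Fgf22, -0.704 to -0.196 for Gdf9, 0.156 to 0.547 for Inha and -0.521 to -0.186 for Fgf10. The FGF family median ran from 0.0448 to 0.171. Tie1 had an adjusted p of 0.0559 without knockout 2 (edgeR). Genes of few reads, such as Fgf9 and Fgf21, are limited by depth.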
